A study of Mus musculus with 4 samples.

Results

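The comparison set the o-organoid array against the whole intestine array, 2 of the 4 arrays of the series, and used every probe on them that is not a control. It asked how an epithelial culture differs in gene expression from the whole organ. The other arrays held crypt RNA and y-organoid RNA, and their signals are given only as values beside the genes described. All 4 samples were total RNA of wild-type mice of the strain C57/BL6, with no allele, agent or treatment named, and each group was 1 array with no replicate. Animal age, the segment of gut taken, the number of animals pooled and the meaning of the letters y and o are not stated in the labels. The o-organoid sample is labelled as a crypt-villus organoid, an epithelial structure that grows from intestinal crypts in a gel with added growth factors. The intestine sample is labelled as whole intestine, so the gut wall with its muscle, vessels, nerves and immune cells could contribute to it. The series title names non-neuronal acetylcholine and the Lgr5-positive stem cells of the gut.

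The gut epithelium renews from stem cells at the crypt base, which divide under Wnt signals strengthened by R-spondins. Their daughters pass through a dividing zone and become absorptive enterocytes, or secretory goblet, Paneth, enteroendocrine and tuft cells. In the organ, muscle, fibroblasts, vessels, nerves, immune cells and microbes surround this sheet and send it signals. In an organoid culture most of these are missing, and growth factors in the medium take over the role of some of them.

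A signal is the log2 intensity of a gene's probe minus the 75th percentile of its array, and a difference is the o-organoid signal minus the intestine signal. Spots repeated on an array gave a technical SD of 0.12 for a difference, or 0.31 for probes with signals below -2. That SD covers the spots of 1 array and not animals, cultures or RNA preparations. With 1 array on each side nothing was tested, and every difference below compares these 2 arrays. Where a gene was well above background on 1 array and dim on the other, its fold is a lower bound, written "at least". The dim side of a bound was set at the higher of its own signal and the lowest signal of any probe above background on that array, -5.0 for o-organoid and -4.48 for intestine. A bound could therefore point only toward the array on which the gene was above background. The labelling reaction took 40 ng of RNA from the o-organoid sample and 20 ng from the intestine. Well above background were 55.1% of the spots on the o-organoid and 58.7% on the intestine array. Transcripts linked to sex also separated the samples. Xist, which silences an X chromosome in female cells, had a signal of -6.73 on the o-organoid and -1.17 on the intestine array, and was above background on the intestine array alone of the 4. The Y-linked Eif2s3y had signals of 0.86 on the o-organoid and -6.22 on the intestine array, and Ddx3y of -0.47 on the o-organoid and -6.54 on the intestine array; both were above background on every array but the intestine one. RNA input, the sex of the animals and the kind of sample cannot be told apart here.

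Of 30107 genes and transcripts read, 15384 were well above background on both arrays, 1121 on the o-organoid array alone and 2310 on the intestine array alone, while 11292 were dim on both. Among the 15384, 559 (3.63%) were higher by 4-fold or more on the o-organoid array and 1061 (6.90%) were lower by as much. Bounds added 91 genes past 4-fold on the higher side and 1229 on the lower side. The larger number on the lower side depended on how the arrays were scaled. On the scale of the deposited values 2276 genes were 4-fold higher and 573 lower, and with quantile normalization 829 were higher and 885 lower. The median difference of the 15384 genes was 0.06 in the main setting, 0.93 on the deposited scale, 0.29 with quantile normalization and 0.21 after centring on pan-epithelial genes. Of the 559 higher genes 98 had another probe above background, and that probe was at least 2-fold higher for 84 of them. Of the 1061 lower genes 149 had such a probe, and it was at least 2-fold lower for 135. In each direction 4 genes had other probes that pointed the opposite way.

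**Figure D1:**
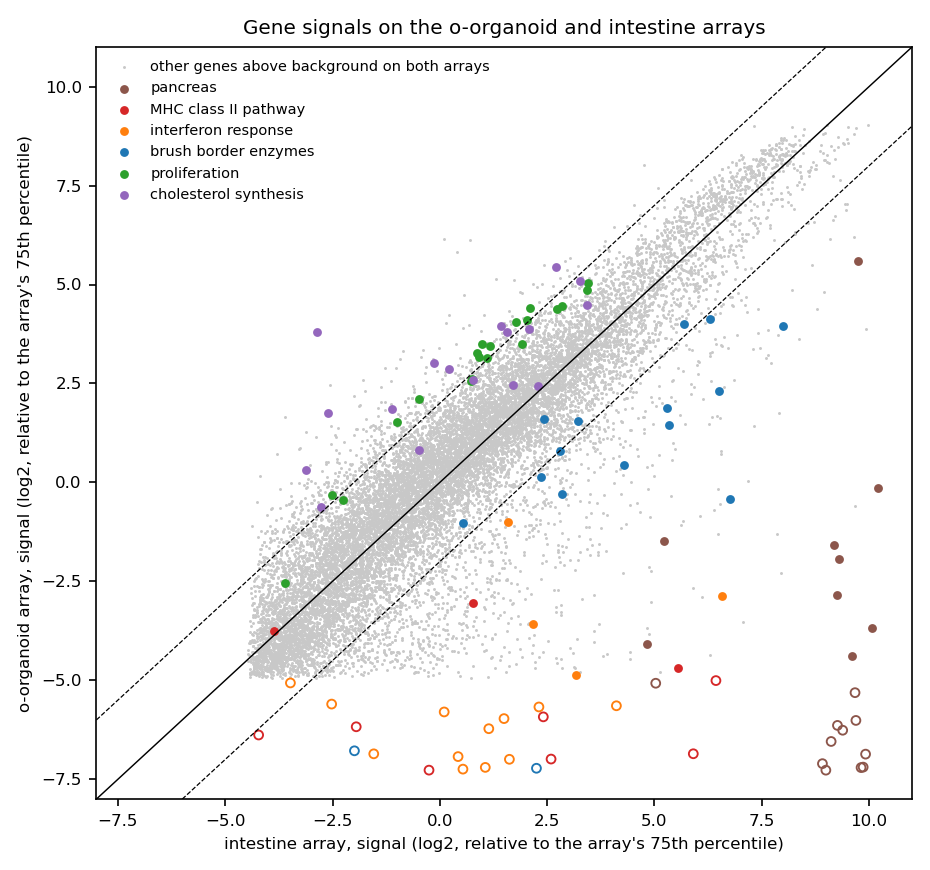
Signal of each gene on the o-organoid array (vertical axis) against the intestine array (horizontal axis), both as log2 intensities from which the array's 75th percentile was subtracted, with 6 gene lists in colour; open circles are members dim on the o-organoid array, the solid line marks equal signals and the dashed lines a 4-fold difference. Most pancreas, MHC class II and interferon genes lie below the lower dashed line, brush border enzymes lie below the line of equal signals, and proliferation and cholesterol synthesis genes lie above it.

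Genes were then read in 58 lists, 57 of which had at least 3 members above background on 1 of the 2 arrays. A list is described by its median difference and by how many members were higher or lower by 2-fold or more, with dim sides at their bound. Over all 18815 genes above background on at least 1 array, the same reading gave a median of -0.03, with 16.1% past 2-fold on the higher side and 24.2% on the lower side. The median was past 2-fold on the higher side for 11 lists and on the lower side for 32. The 11 include the X and Y linked sex transcripts (median 2.25, all 4 as bounds). Some genes are in more than 1 list, so the lists are not separate results.

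**Figure D2:**
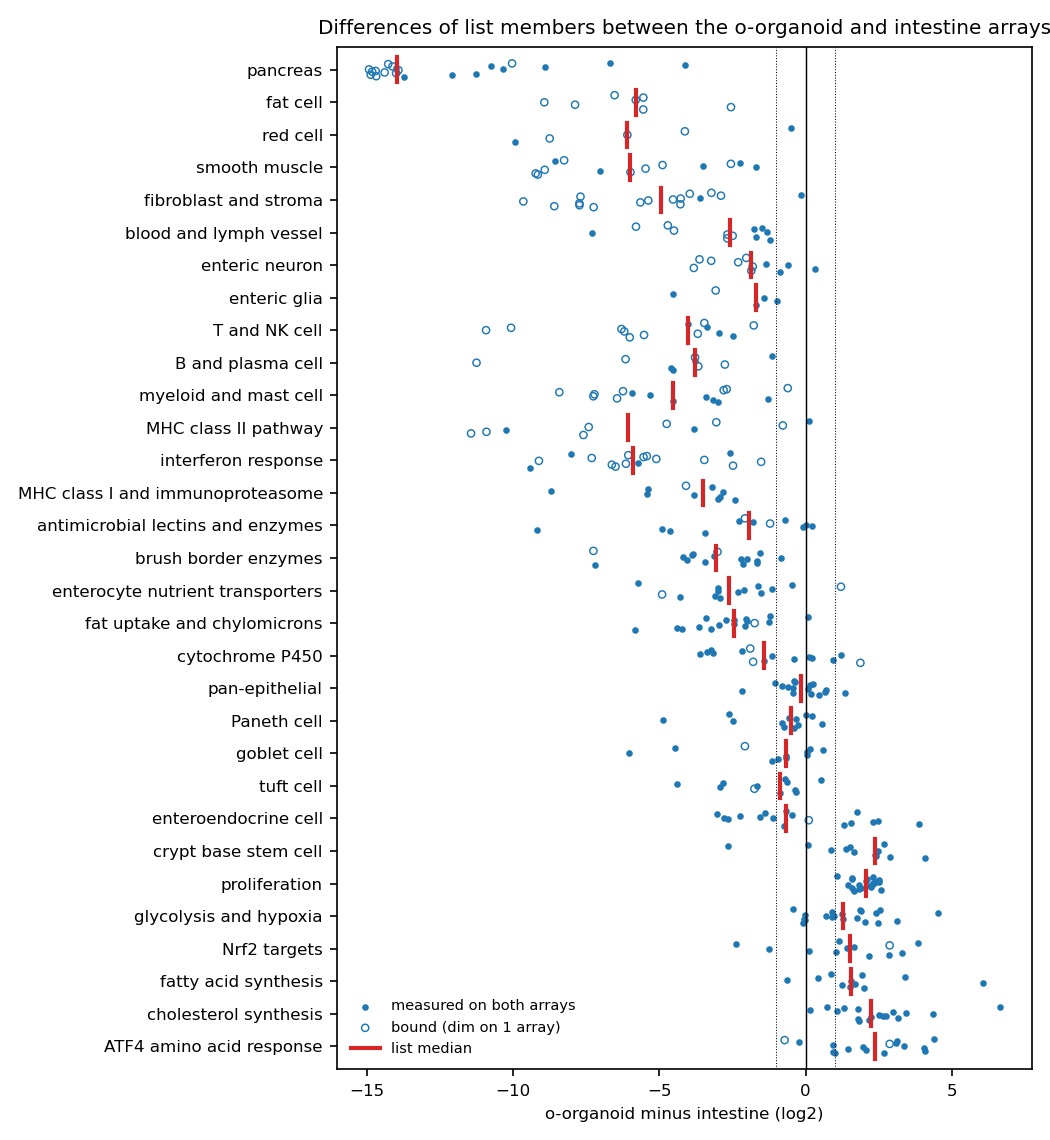
Difference of each list member, o-organoid minus intestine (log2, horizontal axis), for the lists named on the vertical axis; filled points were above background on both arrays, open points are bounds, red bars are list medians and dotted lines mark 2-fold. List medians run from -13.95 for pancreas to 2.37 for the ATF4 amino acid response and crypt base stem cell lists, with the pan-epithelial list at -0.15.

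Genes of the whole gut epithelium were read first. Whole intestine holds epithelium too, so these genes cannot show how purely epithelial the o-organoid sample is. All 16 pan-epithelial genes were above background on both arrays, with a median difference of -0.15 that turned to 0.72 on the deposited scale, and 13 of them lay within 2-fold. The adhesion protein Epcam had a signal of 3.77 on the o-organoid and 3.31 on the intestine array, and Cdx1, a transcription factor of intestinal identity, had signals of 4.39 and 3.69. Both lay within 2-fold. Keratin 18 (Krt18), a filament protein of simple epithelia, was 2.52-fold higher. Villin (Vil1), which bundles the actin cores of microvilli, had a signal of 4.78 on the o-organoid and 6.94 on the intestine array, or 4.47-fold lower, and was the lowest of the list.

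The largest differences between the arrays were in digestive enzymes of the exocrine pancreas, a separate organ that lies against the duodenum. All 20 members of the pancreas list were past 2-fold lower in o-organoid, 11 of them as bounds, with a median of -13.95. Carboxyl ester lipase (Cel), a pancreatic lipase, had a signal of -3.67 on the o-organoid and 10.06 on the intestine array, a difference of -13.73. On the crypt and y-organoid arrays it stood at -3.53 and -2.53, so the intestine array alone was high. The chymotrypsin-like protease Ctrl had signals of -4.39 on o-organoid and 9.60 on intestine. The trypsin gene Try5 was dim on the o-organoid array and at 9.92 on the intestine array, and its difference of -14.92 is the largest bound of the comparison. Protease genes of the trypsin and elastase families are close copies, and how probes divide their transcripts was not tested. The insulin genes Ins1 and Ins2, products of the endocrine pancreas, were also high on the intestine array, at 5.03 and 5.23, against -5.07 and -1.47 on the o-organoid array. The secreted pancreatic phospholipase Pla2g1b was 1595-fold lower. Of the 12 largest measured differences on the lower side, 9 were pancreatic genes by this list or by background knowledge (among them Ctrl, Cel, Cela1, Pnliprp1, Pla2g1b, Ctrb1, Sycn and Pdia2). The remaining 3 were Tff2, a trefoil peptide of stomach and duodenal glands, Cd74 and the haemoglobin gene Hba-a1. Tff2 had a signal of -3.52 on the o-organoid and 7.07 on the intestine array, and -4.40 on the crypt and -2.80 on the y-organoid array.

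Markers of the gut wall followed the same direction. All 13 smooth muscle genes above background were past 2-fold lower in o-organoid (median -5.99), 8 of them as bounds. So were 15 of 16 fibroblast genes (median -4.96), with 14 of the 16 as bounds. Bounds rest on the background floor, and over settings these medians ran from -6.6 to -3.87 and from -6.5 to -3.28. The enteric actin Actg2 had a signal of -5.12 on the o-organoid and 4.23 on the intestine array, and the vascular actin Acta2 of -4.89 on the o-organoid and 4.26 on the intestine array. Both were dim in o-organoid, and in crypt as well (-4.92 and -4.80). Decorin (Dcn), a matrix proteoglycan of fibroblasts, had a signal of -6.50 on the o-organoid and 4.65 on the intestine array, a difference of -9.65 as a bound. Collagen I (Col1a1) was at least 152-fold lower. In bulk samples like these, fewer cells of a type and less RNA per cell cannot be told apart.

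Vessel, fat, red cell and nerve lists were lower as well. All 12 vessel genes were at least 2-fold lower (median -2.58), 6 of them as bounds. Among them was Plvap, a protein of the openings in capillary walls, at -4.47 on the o-organoid and 2.82 on the intestine array. That is a difference of -7.28, while its other probe gave -4.47. Pecam1, a junction protein of endothelium, was 2.31-fold lower. All 7 fat cell genes were above background on the intestine array alone, so as bounds they could not come out higher (median -5.81, from -6.58 to -3.71 over settings). Among them adipsin (Cfd) had a signal of -5.99 on the o-organoid and 3.93 on the intestine array. Haemoglobin alpha (Hba-a1) had a signal of -4.80 on the o-organoid and 5.14 on the intestine array. The enteric neuron list had a median of -1.86, with 8 of 11 genes at least 2-fold lower and 7 of the 11 as bounds. The neuropeptide Vip, which relaxes gut muscle, was at least 14.1-fold lower. The glia list had a median of -1.70, with 4 of 5 lower. Both of those medians came to less than 2-fold in at least 1 other scaling, -0.99 for neurons and -0.84 for glia with the deposited one. Among pacemaker cell genes, Ano1 and Etv1 were lower (4.10-fold lower and 4.26-fold lower), whereas the receptor kinase Kit was 3.06-fold higher.

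The same wall cells make many of the signals that shape the crypt, and those genes were read by role. Of 10 Wnt ligand and R-spondin genes, 7 were past 2-fold lower and 2 past it on the higher side (median -1.67, or -0.81 on the deposited scale). Bounds made up 8 of the 10. Wnt4 had a signal of -3.92 on the o-organoid and 1.21 on the intestine array and was 35.0-fold lower. R-spondin 1 (Rspo1) was at least 14.7-fold lower and R-spondin 3 (Rspo3) at least 7.11-fold lower. Wnt3, the ligand that Paneth cells supply to stem cells, went the other way. Its signal was -2.17 on the o-organoid and -5.47 on the intestine array, at least 4.97-fold higher, and it was -4.14 on the crypt and -4.57 on the y-organoid array. Of the secreted Wnt antagonists, Dkk3 (at least 59.6-fold lower), Sfrp1 (at least 11.6-fold lower) and Sfrp5 (18.2-fold lower) were lower. Notum, an enzyme that inactivates Wnt proteins, was 3.12-fold lower. On the crypt array Dkk3 and Sfrp1 were dim. Sfrp5 stood there at 2.35 and Notum at 1.94, against 0.05 and 2.01 on the intestine array.

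In the BMP list, whose ligands favour differentiation away from the crypt base, 9 of 12 genes were at least 2-fold lower (median -1.98). They included ligands and their antagonists alike. Bmp4 had a signal of -4.79 on the o-organoid and 1.55 on the intestine array, a difference of -6.34, and the antagonist gremlin 1 (Grem1) was at least 56.4-fold lower. The target gene Id3 was 4.59-fold lower. The epithelial ligand Bmp7 was 2.21-fold higher. In the hedgehog pathway the stromal responders Gli1 and Foxf1 were dim on the o-organoid array (at least 16.8-fold lower and at least 54.2-fold lower). The epithelial ligand Ihh, with signals of 2.43 and 2.62, and the receptor Ptch1, with -2.42 and -2.33, lay within 2-fold. The hedgehog median was -2.04. The Notch list, which steers cells between absorptive and secretory fates, had a median of 0.68 with 6 of 12 genes at least 2-fold higher. Among them were the ligand Jag2 (at least 4.14-fold higher) and the targets Hes5 (at least 3.17-fold higher) and Nrarp (3.13-fold higher), while Hey1 and Notch3, which vessels and muscle also express, were at least 4.74-fold lower and 2.78-fold lower.

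Genes of EGF family ligands and receptors went in both directions, with 3 of 11 higher, 3 lower and a median of -0.04 that became 0.82 on the deposited scale. Neuregulin 1 (Nrg1), Egf and epiregulin (Ereg) were lower as bounds (at least 20.9-fold lower, at least 14.3-fold lower and at least 6.08-fold lower). Betacellulin (Btc) was at least 6.24-fold higher and amphiregulin (Areg) 2.27-fold higher. Lrig1, a brake on EGF receptors and a stem cell marker, was 5.77-fold higher. The receptors Egfr and Erbb2 had signals of -0.58 and -0.76 and of 0.66 and 0.70, each within 2-fold. Basement membrane chains divided too, with 9 of 15 lower and 2 higher (median -1.83, or -0.97 on the deposited scale). Collagen IV (Col4a1) was at least 44.6-fold lower and laminin beta 1 (Lamb1) 77.7-fold lower. Laminin beta 3 (Lamb3), a chain of the laminin that epithelia make, was 2.87-fold higher.

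Genes of the crypt base stem cells were mostly higher on the o-organoid array. These are bulk signals, and the part that the share of epithelium has in them was not tested. Of 13 crypt base genes 10 were past 2-fold higher and 1 past 2-fold lower, with a median of 2.37. Lgr5, the R-spondin receptor that marks these cells, had a signal of 2.32 on the o-organoid and -1.75 on the intestine array, -0.39 on the crypt and 2.85 on the y-organoid array. Both organoid arrays were thus high and the intestine array was the lowest, with o-organoid 16.8-fold higher than intestine. Ascl2, a transcription factor that maintains stem cell fate, had signals of 3.83 and 0.95 and was 7.36-fold higher. Olfm4, a secreted marker of the same cells, was 5.31-fold higher, Sox9 5.52-fold higher and the sodium, potassium and chloride transporter Slc12a2 6.42-fold higher. The Wnt targets Axin2 and Znrf3 were 3.11-fold higher and 2.61-fold higher. Musashi 1 (Msi1), an RNA-binding protein, went against the list at -1.13 on the o-organoid and 1.53 on the intestine array, and it stood at 1.51 on the crypt array. Reserve stem cell genes were also higher, with 4 of 4 past 2-fold, 1 of them as a bound. Hopx was 4.04-fold higher. Bmi1 was 2.56-fold higher, a difference of 1.36, with its other probe at 0.84, under 2-fold.

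Every proliferation gene above background, 20 of 20, was past 2-fold higher in o-organoid. Their differences spanned 1.07 to 2.58, with a median of 2.07 that stayed between 1.94 and 2.94 in the other settings. The DNA-untangling enzyme Top2a had a signal of 2.10 on the o-organoid and -0.49 on the intestine array, and the proliferation antigen Mki67 of 4.37 on the o-organoid and 2.73 on the intestine array. The replication helicase subunits Mcm2, Mcm3 and Mcm5 were 5.73-fold higher, 5.29-fold higher and 5.74-fold higher. On the crypt array the median signal of this list was 2.58, between 1.04 on intestine and 3.36 on o-organoid. A median of signals over genes is given only to set the arrays in order for the same probes.

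**Figure D3:**
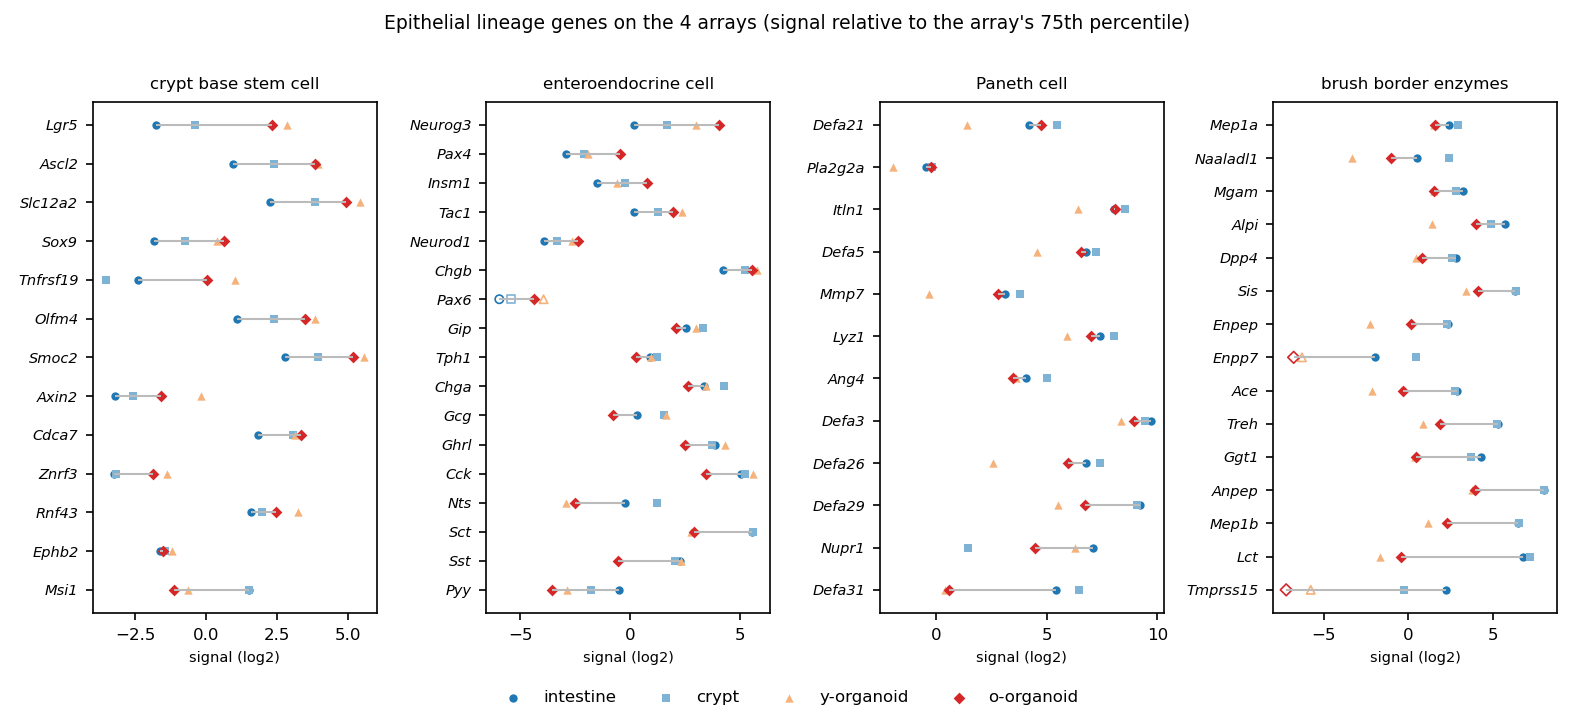
Signals (log2, relative to the 75th percentile of the array, horizontal axes) of the genes of 4 epithelial lists on the 4 arrays, with a grey line joining intestine and o-organoid and open symbols for arrays on which a gene was not well above background. Lgr5 goes from -1.75 on intestine to 2.32 on o-organoid and Neurog3 from 0.15 to 4.02, whereas Lct goes from 6.77 on intestine to -0.43 on o-organoid.

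Paneth cells, which sit between the stem cells and secrete antimicrobial peptides, were represented by 12 genes with a median of -0.49, or 0.37 on the deposited scale. No member was 2-fold higher, 3 were at least 2-fold lower and 9 lay within 2-fold. Lysozyme 1 (Lyz1) had a signal of 6.99 on the o-organoid and 7.38 on the intestine array. The defensin Defa3 had signals of 8.96 and 9.69, also within 2-fold. The defensins Defa29 and Defa31 were lower, 5.62-fold lower and 29.0-fold lower, the latter with another probe at -2.43; alpha-defensin genes are near-identical copies, so their separate values are uncertain. The goblet cell median was -0.67, or 0.19 on the deposited scale, with 4 of 11 at least 2-fold lower. The lectin Zg16 was the lowest, at 3.88 on the o-organoid and 9.93 on the intestine array. The trefoil peptide Tff3 was 2.24-fold lower, and the fate factor Atoh1 had signals of -0.17 and -0.76. For Clca1 the chosen probe gave -0.67 and the other probe -4.67, so its value is uncertain.

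Of the enteroendocrine list, 6 of 17 genes were higher and 7 lower (median -0.66, or 0.20 on the deposited scale). The fate factor Neurog3, which starts endocrine differentiation, had a signal of 4.02 on the o-organoid and 0.15 on the intestine array and was 14.6-fold higher. Pax4, Insm1 and Neurod1, which act after it, were 5.59-fold higher, 4.90-fold higher and 2.93-fold higher. All 7 lower genes encode hormones, among them peptide YY (Pyy) 8.15-fold lower, somatostatin (Sst) 6.95-fold lower, secretin (Sct) 6.25-fold lower and neurotensin (Nts) 4.76-fold lower. For Sst the o-organoid array alone was low, at -0.54, against 2.25 on intestine, 2.05 on crypt and 2.31 on y-organoid. Sct was low on both organoid arrays, at 2.90 on o-organoid and 2.74 on y-organoid, against 5.55 on intestine and 5.56 on crypt. Incretin Gip, with signals of 2.07 and 2.54, and chromogranin A (Chga), with 2.62 and 3.35, lay within 2-fold, while chromogranin B (Chgb) was 2.50-fold higher and tachykinin (Tac1) 3.39-fold higher. Tuft cells, which sense the gut contents, had 5 of 11 genes lower and none 2-fold higher (median -0.87, or -0.01 on the deposited scale). Their kinase marker Dclk1 had signals of -4.04 and -3.16 and lay within 2-fold. The members that were lower included Ptgs1, Alox5 and Siglecf (20.9-fold lower, 7.66-fold lower and 7.09-fold lower), which blood and wall cells also express. Signals of Ptgs1, Alox5 and Siglecf on the crypt array were -1.79, -1.18 and -1.42, against 1.47, -1.05 and -1.47 on the intestine array.

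Genes of mature enterocytes were lower almost throughout. 15 of 16 brush border enzymes were at least 2-fold lower (median -3.08). Lactase (Lct), which splits milk sugar, had a signal of -0.43 on the o-organoid and 6.77 on the intestine array, 7.20 on the crypt and -1.66 on the y-organoid array. The organoid arrays were thus low and both tissue arrays high, with o-organoid 147-fold lower than intestine. Enteropeptidase (Tmprss15), which activates trypsin, was at least 153-fold lower, aminopeptidase N (Anpep) 16.6-fold lower and alkaline phosphatase (Alpi) 3.20-fold lower. Of 14 nutrient transporters 12 were lower (median -2.61), among them the folate carrier Slc46a1 (53.7-fold lower), the peptide carrier Slc15a1 (at least 30.0-fold lower), and the glucose and fructose carriers Slc2a2 and Slc2a5 (19.6-fold lower and 8.49-fold lower). The ileal bile acid carrier Slc10a2 was the exception that was higher, at least 2.31-fold higher. Of 17 fat absorption genes 16 were lower (median -2.45). Apolipoprotein A1 (Apoa1), a protein of secreted lipid particles, had a signal of 0.73 on the o-organoid and 6.56 on the intestine array, and Apoa4 of 2.40 on the o-organoid and 6.63 on the intestine array. The retinol carrier Rbp2 had signals of 2.05 and 5.47.

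Position along the gut was read from regional genes. Both the proximal and the distal small intestinal lists were lower (medians -1.79 and -1.74), and both came to less than 2-fold on the deposited scale (-0.93 and -0.88). Gata4, the transcription factor of the proximal part, had signals of 2.35 and 2.01, while Lct and the alcohol dehydrogenase Adh6a (17.9-fold lower) of the same list were lower. In the distal list 5 of 7 genes were at least 2-fold lower and 1 higher, with 4 of the 7 as bounds. The vitamin B12 receptor cubilin (Cubn) was at least 133-fold lower and the bile acid exporters Slc51a and Slc51b 15.0-fold lower and 86.1-fold lower. Slc10a2 of the same list was at least 2.31-fold higher. Lct is also in the brush border list, and region and maturity of the cells cannot be told apart here. The colon median was -0.96 over 7 genes, and the stomach median 0.15 over 7, or -0.66 without the filter on dim probes and 1.02 on the deposited scale. Of the stomach genes 3 were lower, namely Tff2, the intrinsic factor gene Cblif (2.99-fold lower) and the mucin Muc5ac (at least 2.28-fold lower), and 1 was higher, the pepsinogen gene Pgc (at least 3.07-fold higher). In the fetal-like list, which marks regenerating epithelium, 3 of 11 genes were higher and 6 lower (median -1.70, or -0.83 on the deposited scale). Clusterin (Clu) had a signal of 2.48 on the o-organoid and 5.84 on the intestine array, -2.81 on the crypt and 1.42 on the y-organoid array, and Ly6a one of -0.48 on the o-organoid and 2.40 on the intestine array, -3.54 on the crypt and 0.74 on the y-organoid array. For both, the crypt array was the lowest of the 4.

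Antigen presentation and interferon genes were also lower on the o-organoid array. Of 10 MHC class II pathway genes, 8 were at least 2-fold lower, and 7 of the 10 were bounds. The median was -6.08 and ran from -7.68 to -4.13 over settings. The class II chain H2-Ab1 was dim on the o-organoid array at -5.01 and at 6.43 on the intestine array, a difference of -11.43 as a bound, and it stood at 4.55 on the crypt and -3.22 on the y-organoid array. The invariant chain Cd74 had a signal of -4.68 on the o-organoid and 5.55 on the intestine array, 3.23 on the crypt and -3.33 on the y-organoid array. Both tissue arrays were high for these genes and both organoid arrays were low. Ciita, the activator of class II genes, was low on both arrays at -3.76 and -3.87. All 10 class I and immunoproteasome genes were at least 2-fold lower (median -3.51). The immunoproteasome subunit Psmb8 had a signal of -4.28 on the o-organoid and 4.43 on the intestine array, 3.53 on the crypt array, and the peptide transporter Tap2 was 43.2-fold lower. Beta-2 microglobulin (B2m), the shared class I chain, was 7.67-fold lower.

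All 16 interferon response genes were at least 2-fold lower, 12 of them as bounds, with a median of -5.90. Isg15, a ubiquitin-like protein made on interferon exposure, had a signal of -2.87 on the o-organoid and 6.56 on the intestine array, 2.63 on the crypt and 0.61 on the y-organoid array. The GTPase Igtp had signals of -4.85 and 3.16, and Ifit3, which blocks translation of viral RNA, of -6.99 and 1.62. On the crypt array their signals were 1.09 and -1.40, above the o-organoid and below the intestine values. Promoters of these genes were searched for the interferon-stimulated response element, here the letters GAAA, any pair of bases and GAAA again, on either strand in the 250 bases before the start. Of the 12 list members with a promoter sequence, 8 held a match (66.7%), against 3.36% of all 11952 genes above background with one. A match describes letters and not binding. Genes were listed by known pathway, so such a share, here and for the lists below, describes the list and not these arrays. The following stretches are from RefSeq, assembly GRCm38.p6, written 5′ to 3′ in the direction of the gene, with every match in capitals. They are shown because these genes are among the lowest of the list. Isg15 (chr4:156200837-156200946, minus strand) and Igtp (chr11:58199472-58199555, plus strand) hold it on the gene's strand, in Isg15 as 3 overlapping matches, and Ifit3 (chr19:34583323-34583432, plus strand) holds 2 matches on the opposite strand.
Isg15: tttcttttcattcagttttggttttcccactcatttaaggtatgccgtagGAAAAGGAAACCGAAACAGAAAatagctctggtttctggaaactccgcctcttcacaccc
Igtp: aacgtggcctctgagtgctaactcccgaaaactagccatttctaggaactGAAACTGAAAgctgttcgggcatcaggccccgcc
Ifit3: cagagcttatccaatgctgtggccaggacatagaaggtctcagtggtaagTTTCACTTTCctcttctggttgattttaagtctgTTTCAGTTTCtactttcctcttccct

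Antimicrobial lectins and enzymes of the epithelium were lower for 8 of 12 genes (median -1.94). Reg3b, a lectin that enterocytes make when microbes are present, had a signal of -1.31 on the o-organoid and 7.86 on the intestine array, 6.69 on the crypt and -2.58 on the y-organoid array. Reg3g, which acts on Gram-positive bacteria, was 29.7-fold lower. Nitric oxide synthase Nos2, with signals of -1.95 and -1.96, and Reg4, with 3.06 and 3.15, lay within 2-fold.

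Immune cell markers differed in the same direction as these genes. All 13 T and NK cell genes were past 2-fold lower (median -4.03), as were all 9 B and plasma cell genes (median -3.79) and 14 of 15 myeloid and mast cell genes (median -4.52). The T cell receptor chain Cd3d had signals of -7.06 and 1.01, granzyme A (Gzma) of -5.54 and 5.92, the antibody joining chain Jchain of -5.43 and 6.25 and the myeloid adaptor Tyrobp of -6.46 and 3.42. All of these were dim on the o-organoid array. Above background on the o-organoid array were 4 of the 13, 4 of the 9 and 7 of the 15 genes of these lists, with median signals of -5.80, -5.29 and -5.39, against 1.26, -0.27 and 1.44 on the intestine array. On the crypt array 11 of the T and NK cell genes, 3 of the B and plasma cell genes and 8 of the myeloid and mast cell genes were above background. There Gzma stood at 3.01, Jchain at -5.79 and Tyrobp at -2.71. The part of immune cells in the antigen presentation and interferon values was not tested.

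**Figure D4:**
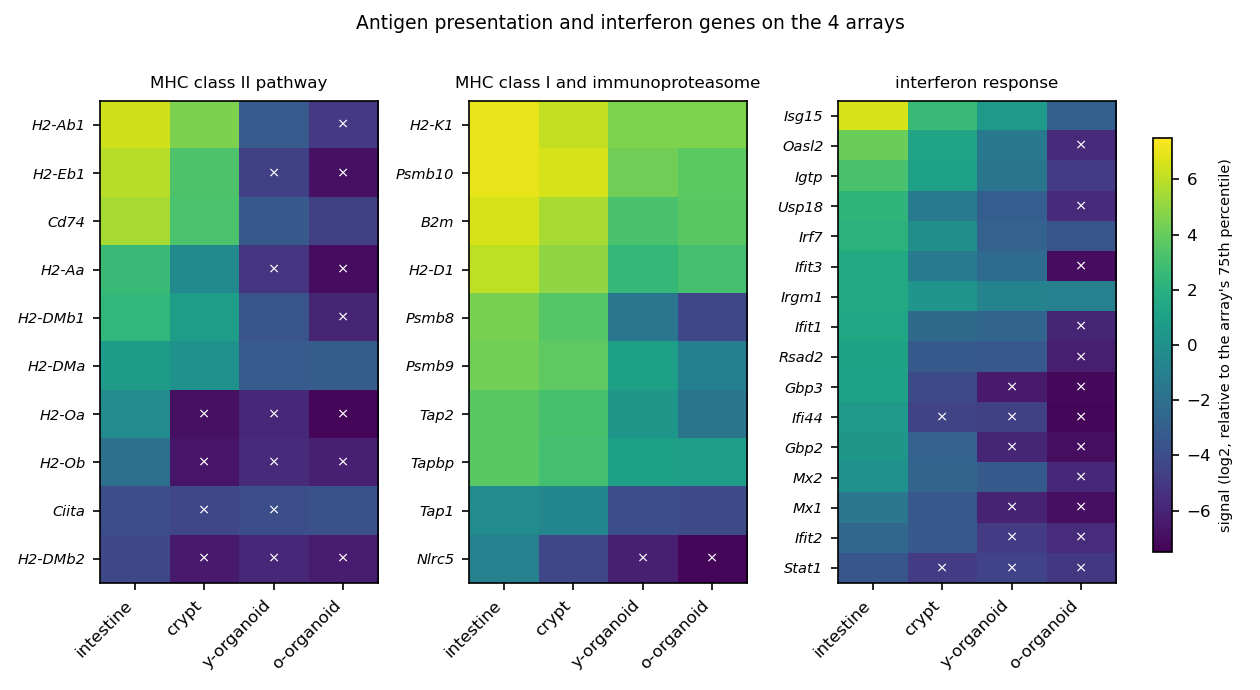
Signals (log2, relative to the 75th percentile of the array, colour scale) of MHC class II, MHC class I and interferon genes on the 4 arrays, with a cross where a gene was not well above background. For Isg15 the signals are 6.56 on intestine, 2.63 on crypt, 0.61 on y-organoid and -2.87 on o-organoid, and for H2-Ab1 they are 6.43, 4.55, -3.22 and -5.01.

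Among metabolic genes, sterol synthesis was higher. 15 of 17 cholesterol genes were at least 2-fold higher and none was 2-fold lower, with a median of 2.22 and a range over settings of 2.20 to 3.08. Lanosterol synthase (Lss), which closes the rings of the sterol, had a signal of 1.76 on the o-organoid and -2.60 on the intestine array, -0.94 on the crypt and 0.08 on the y-organoid array. It was 20.6-fold higher. The lanosterol demethylase Cyp51 had signals of 0.30 and -3.13. Insig1, which holds back the sterol sensor, was 2.46-fold higher. The sterol response element, the letters TCACNCCAC on either strand, was found in 1 of 9 promoters of these genes that had a sequence, that of the synthase Hmgcs1, and in 1.22% of all promoters. Hmgcs1, 3.51-fold higher, is shown for this reason, from chr13:119690164-119690272, plus strand.
Hmgcs1: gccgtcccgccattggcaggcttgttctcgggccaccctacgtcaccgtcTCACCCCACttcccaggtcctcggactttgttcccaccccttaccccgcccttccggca

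Fatty acid synthesis genes were at least 2-fold higher for 8 of 11 (median 1.55). The desaturase Scd2, which makes monounsaturated fatty acids, had a signal of 6.15 on the o-organoid and 0.10 on the intestine array, 1.77 on the crypt and 4.68 on the y-organoid array, and was 66.2-fold higher. Its relative Scd1 was 3.19-fold higher, the desaturase Fads1 10.4-fold higher and fatty acid synthase (Fasn) 4.01-fold higher. The opposite pathway, with targets of the fatty acid sensor PPAR, had a median of -0.72 that turned to 0.14 on the deposited scale. Of 16 genes 6 were lower and 2 higher. The hydroxylase Cyp4a10 had a difference of -4.54, with its other probe at -1.87. The pyruvate dehydrogenase kinase Pdk4 was at least 19.3-fold lower, while the thioesterase Acot1 was 6.13-fold higher.

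The ATF4 list, which cells use when amino acids are short, was higher for 12 of 16 genes, with a median of 2.37. The secreted hormone Stc2 had a signal of 2.58 on the o-organoid and -1.79 on the intestine array, -6.65 on the crypt and 2.73 on the y-organoid array. Chac1, which breaks down glutathione, had a signal of 3.13 on the o-organoid and -0.93 on the intestine array, -5.24 on the crypt and 2.41 on the y-organoid array. For both genes the organoid arrays were the highest pair and the crypt array the lowest. The serine and one-carbon enzymes Psat1, Shmt2 and Mthfd2 were 16.3-fold higher, 10.2-fold higher and 8.78-fold higher, and the amino acid carrier Slc7a5 8.48-fold higher, a difference of 3.08 with its other probe at 2.04. Slc7a11, the cystine carrier, was dim on intestine and crypt and had a signal of -1.61 on the o-organoid array, at least 7.31-fold higher. The amino acid response element, the letters TTGCATCA on either strand, was found in 3 of 15 promoters of the list (Chac1, Slc7a11 and Fgf21) and in 0.812% of all. Fgf21 was dim on the o-organoid array and at -4.28 on the intestine array. Windows of the other two are shown because these are the genes with a match that were at least 2-fold higher. Chac1 (chr2:119350999-119351106, plus strand) holds the match on the gene's strand, and Slc7a11 (chr3:50443622-50443729, minus strand) holds 2, the first on the opposite strand and the second on the gene's strand.
Chac1: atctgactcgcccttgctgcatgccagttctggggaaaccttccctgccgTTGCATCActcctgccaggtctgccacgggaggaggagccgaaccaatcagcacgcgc
Slc7a11: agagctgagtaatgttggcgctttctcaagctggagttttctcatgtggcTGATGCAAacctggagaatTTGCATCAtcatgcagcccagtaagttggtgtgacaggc

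**Figure D5:**
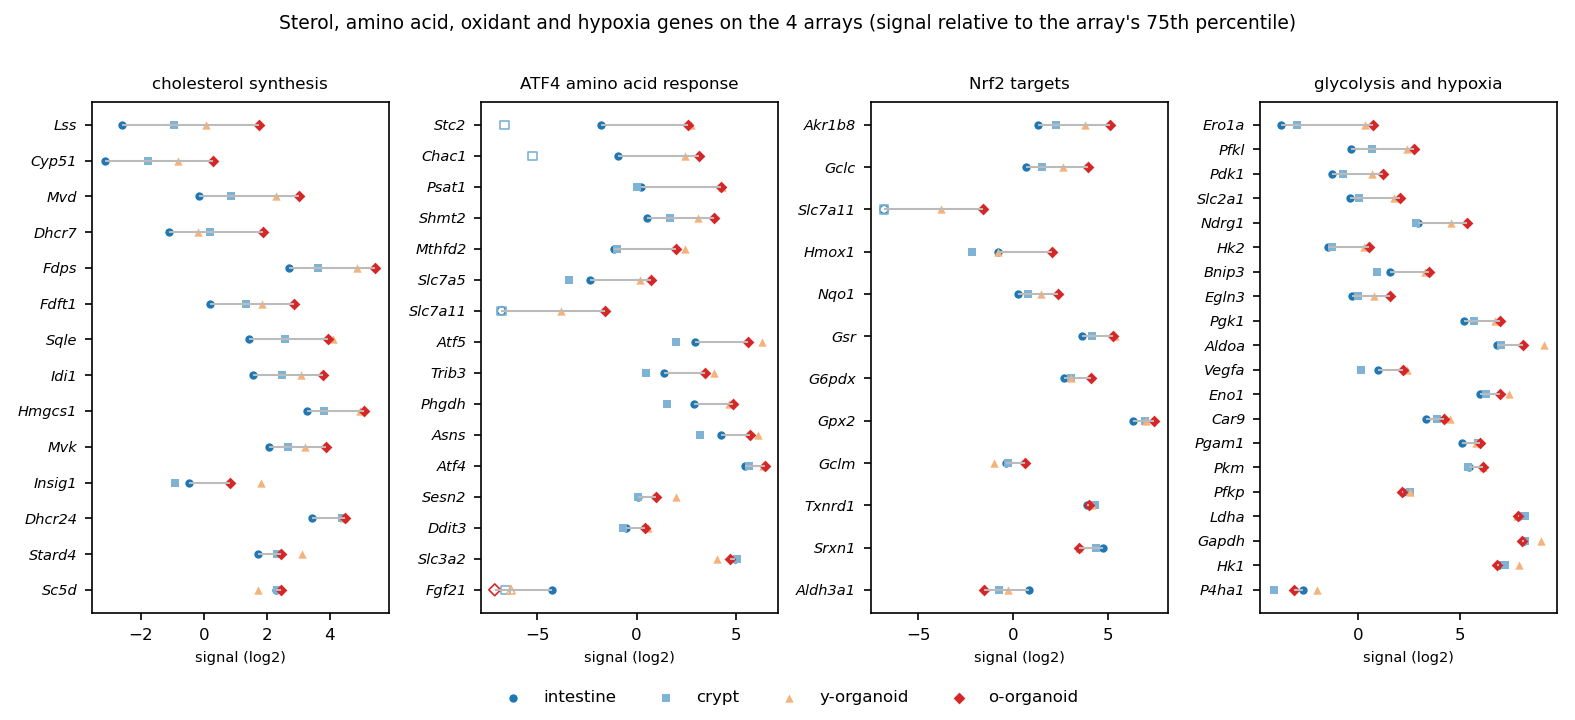
Signals (log2, relative to the 75th percentile of the array, horizontal axes) of sterol, amino acid, oxidant and hypoxia genes on the 4 arrays, with a grey line joining intestine and o-organoid and open symbols for arrays on which a gene was not well above background. The o-organoid symbol lies to the right of the intestine one for every cholesterol gene drawn, by 0.15 for Sc5d and by 4.37 for Lss.

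Targets of Nrf2, the sensor of oxidants, were higher for 9 of 12 (median 1.52). The aldo-keto reductase Akr1b8 had signals of 5.14 and 1.31, and the glutathione synthesis subunit Gclc of 3.98 and 0.67. The quinone reductase Nqo1 was 4.45-fold higher and haem oxygenase (Hmox1) 7.26-fold higher, a difference of 2.86 with its other probe at 1.70. Aldh3a1 and Srxn1 were lower, 5.19-fold lower and 2.40-fold lower. The antioxidant response element, TGACNNNGC on either strand, was found in 3 of 8 promoters of this list and in 13.6% of all. Hypoxia and glycolysis genes were higher for 11 of 20, with none 2-fold lower (median 1.26). The oxidase Ero1a, which forms disulfide bonds in the endoplasmic reticulum, had a signal of 0.73 on the o-organoid and -3.80 on the intestine array and was 23.1-fold higher. Pfkl, a step-setting enzyme of glycolysis, was 8.68-fold higher and the glucose carrier Slc2a1 5.50-fold higher. Gapdh and Ldha lay within 2-fold by their chosen probe, at -0.07 and -0.03, with other probes at 1.09 and 1.01.

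Endoplasmic reticulum chaperones were close on both arrays: all 14 lay within 2-fold, with a median of -0.04 that became 0.83 on the deposited scale. The heat shock list had a median of 1.02 (0.78 with normexp background correction). Its mitochondrial chaperone Hspd1 had signals of 5.81 and 4.18, whereas Hspb1, a small heat shock protein that muscle carries in quantity, was at least 183-fold lower. Immediate early genes had a median of -1.16, which moved to -0.29 on the deposited scale. Fos was 9.49-fold lower and Klf4, a factor of differentiated epithelium, 9.65-fold lower, while Ier2 was 3.30-fold higher. The p53 target list had a median of 0.22, with Sesn1 3.75-fold lower and the nuclease Aen at signals of 3.47 and 1.88.

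Genes of drug and toxin metabolism went in different directions by class. Cytochrome P450 genes had a median of -1.42 (-0.56 on the deposited scale), with 9 of 15 lower and 2 higher. Cyp3a11, an enzyme that oxidises many drugs, had a signal of 2.23 on the o-organoid and 5.85 on the intestine array, a difference of -3.62, with its other probe at -2.56. Cyp1a1, induced through the aryl hydrocarbon receptor, was at least 3.65-fold higher. Conjugating enzymes had a median of 1.0, with 6 of 12 higher and 3 lower, and that median was 0.98, under 2-fold, with the percentile over probes above background on all arrays. The glutathione transferase Gsta3 had a signal of 6.13 on the o-organoid and 0.69 on the intestine array, 1.98 on the crypt and 5.51 on the y-organoid array, and was 43.3-fold higher, with its other probe at 5.63. The sulfotransferase Sult1c2 was 12.3-fold higher, whereas Sult1a1 was at least 37.2-fold lower and Sult1b1 7.14-fold lower. Retinoid genes were lower for 8 of 13 (median -1.89). The retinoic acid synthesis enzymes Aldh1a2 and Aldh1a3 were dim on the o-organoid array (at least 51.6-fold lower and at least 71.4-fold lower), Aldh1a1 had signals of 6.58 and 5.70, and the carotene cleaving enzyme Bco1 was at least 7.56-fold higher.

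Of 14 genes of acetylcholine metabolism, the subject of the series title, 5 were dim on both arrays. Choline acetyltransferase (Chat), which makes acetylcholine, was dim on both arrays at -6.85 and -6.33, as was the high-affinity choline carrier Slc5a7 at -6.90 and -4.79. The vesicular carrier Slc18a3 had a signal of -4.59 on the o-organoid and -2.59 on the intestine array. Acetylcholinesterase (Ache), which breaks acetylcholine down, was dim on the o-organoid array at -6.30 and at -4.23 on the intestine array. Butyrylcholinesterase (Bche) had signals of 3.26 and 3.59, within 2-fold. Carnitine acetyltransferase (Crat), which can also acetylate choline, was 2.49-fold lower. Of the choline carriers, Slc44a3 was 2.91-fold higher, and Slc44a1, Slc44a2 and Slc44a4 lay within 2-fold at -0.26, -0.35 and -0.45. Slc22a2, Slc22a3 and Slc44a5 were dim on both arrays. The median of the 9 genes above background was -0.45, or 0.42 on the deposited scale.

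Of the muscarinic receptors, Chrm3 was above background on the o-organoid array and dim on the intestine array. Its signals were -2.33 on the o-organoid and -4.58 on the intestine array, -4.59 on the crypt and -1.49 on the y-organoid array, and o-organoid was at least 4.44-fold higher than intestine. Both organoid arrays were thus the higher pair. Chrm4 was within 2-fold at -3.83 and -4.09, and Chrm1, Chrm2 and Chrm5 were dim on both arrays. Of 16 nicotinic subunits 9 were dim on both arrays, Chrna7 among them at -6.04 and -6.55. The signals of the 7 others reached at most -2.82 on the o-organoid and -1.95 on the intestine array, both for Chrna2. Their median was -1.05, or -0.18 on the deposited scale. Of these, Chrna10 and Chrnb4 were at least 2.89-fold lower and at least 2.65-fold lower, Chrna9 2.28-fold lower and Chrna4 2.07-fold lower. Chrna2, with signals of -2.82 and -1.95, lay within 2-fold. Chrnb1 and Chrnb2 were above background on the o-organoid array alone, at -3.58 and -4.85, and their bounds were under 2-fold. For probes with signals below -2 the technical SD of a difference is 0.31.

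Among the 12 largest measured differences on the higher side, several belonged to the lists above (Scd2, Gsta3, Ero1a, Stc2 and Lss among them), and 6 did not, namely Cbr3, Macc1, Epop, Adm2, Rgcc and Acta1. The carbonyl reductase Cbr3 had a signal of 5.83 on the o-organoid and 0.39 on the intestine array, 0.99 on the crypt and 5.47 on the y-organoid array. Macc1, a regulator of the receptor gene Met, had a signal of 1.66 on the o-organoid and -3.60 on the intestine array, -2.62 on the crypt and 1.61 on the y-organoid array. For both the organoid arrays were high and the tissue arrays low. The peptide hormone Adm2 was 20.4-fold higher, the cell cycle regulator Rgcc 18.2-fold higher and skeletal muscle actin (Acta1) 18.1-fold higher, the last against the direction of the smooth muscle list. Epop, a partner of the Polycomb complex, was 21.0-fold higher. The largest bounds on the higher side were metallothionein 4 (Mt4), a metal-binding protein of stratified epithelia, and annexin A10 (Anxa10), a calcium-dependent membrane protein. Mt4 had a signal of 3.98 on the o-organoid and -4.64 on the intestine array, -5.18 on the crypt and 1.82 on the y-organoid array, and Anxa10 one of 0.96 on the o-organoid and -4.96 on the intestine array, -6.78 on the crypt and -0.48 on the y-organoid array. The parathyroid hormone-related peptide Pthlh was at least 13.1-fold higher and the mitotic protein Pimreg at least 13.4-fold higher.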

How the data were processed

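Per the labels' protocols, RNA came from acid guanidinium and phenol extraction, and a low-input amplification kit added the Cy3 label. The authors deposited the scanner's spot intensity without a log transform. Per the file headers, Agilent Feature Extraction 10.7.3.1 produced it and subtracted the background, and probe positions are on build mm9. The authors' deposited value table holds a ratio, the same intensity over 1 constant per array (36.94 for o-organoid and 40.47 for intestine), so every column's median is 1.0, the scale is linear and genes are not centred.

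Control spots (1377 per array) and outlier spots (165 on o-organoid and 162 on intestine) were left out, and no spot was saturated. Intensities were put on the log2 scale, the 75th percentile of the array (641.3 for o-organoid and 386.1 for intestine) was subtracted, and spots of 1 probe were averaged. Of 39429 probes, 27234 were named by accession, 3576 by symbol and 565 by synonym through the RefSeq gene table of GRCm38.p6, and 8054 kept the file's name. Where a gene had several probes, the one brightest on average over the 4 arrays was used. No test was run, since each group is 1 array. Genes were counted at 4-fold and list members at 2-fold. Defa17, Defa20, Defa22, Defa24, Muc2, Hspa1b, Gsta1 and Ugt1a1 were not matched to a probe here.

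The members and lists were chosen with earlier results of these data known. Named genes are the 12 largest differences and 6 largest bounds in each direction among annotated genes, the 6 members of a list with the largest differences, all acetylcholine, muscarinic, nicotinic and sex-linked members and a set of markers. Other members were chosen after their values were seen: Aldh1a1, Atoh1, Axin2, B2m, Bmp7, Chgb, Ciita, Cyp1a1, Egfr, Erbb2, Fgf21, Gapdh, Gip, Hmgcs1, Ihh, Ins1, Ins2, Insig1, Lamb3, Ldha, Neurod1, Nos2, Nts, Ptch1, Reg4, Srxn1, Tac1 and Znrf3. Some genes that this rule names are not reported here or drawn in plots with gene names, but are included in counts and medians. Promoter windows came from the 250 bases before each RefSeq start. Counting was checked on simulated data, made from the intestine spots with known differences put in. Their background flags were kept, so the check did not cover bounds or the choice of scaling. Alternatives were normexp background correction (offset 50), the deposited scaling, quantile normalization, the percentile over probes above background on all arrays, centring on pan-epithelial genes, no filter on dim probes, the median over probes, and leaving out probes with at least 5 copies of a 2-base repeat. Python 3.11.15, numpy 2.4.6, pandas 2.3.3, R 4.3.3 and limma 3.58.1 were used.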

Additional observations from a re-analysis of the deposited data

How the results depend on the processing

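The count of genes at least 4-fold higher, 559 in the main setting, was 268 with normexp background correction, 2276 with the scaling of the deposited table and 849 without the filter on dim probes. The count of genes at least 4-fold lower, 1061 in the main setting, was 573 with the deposited scaling and 3199 without the filter, which brings in all 30107 genes. Lists with a median at least 2-fold lower numbered 32 in the main setting and 21 with the deposited scaling. The deposited scaling divides by the median and not the 75th percentile of each array, which moves all differences up by the same amount. No list median or named gene called in the main setting changed sign in any setting run, and of 43 called list medians 30 kept their call in all of them. No paired analysis was possible because each group has 1 array, and no replicate could be left out. Dim signals limit 1121 genes on one side and 2310 on the other to bounds.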

Other observations

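Gene families picked by symbol, after values were seen, gave further contrasts between the o-organoid and intestine arrays. Apolipoproteins L, proteins induced by inflammation, were at least 2-fold lower for all 7 members above background (median -6.11). Apol9b had a signal of -3.83 on the o-organoid and 4.87 on the intestine array, 3.62 on the crypt and -1.44 on the y-organoid array, and Apol10a one of -3.59 on the o-organoid and 3.70 on the intestine array, 3.97 on the crypt and -4.40 on the y-organoid array. Both tissue arrays were high and both organoid arrays low for these genes; Apol9a and Apol9b are close copies, and their separate values are uncertain. Chemokines, which attract white blood cells, were lower for 19 of 23, with Cxcl12 at least 48.7-fold lower and Ccl24 65.4-fold lower, while Ccl28, made by mucosal epithelium, was 2.38-fold higher. Hox genes, which encode position along the body, were lower for 14 of 16, most at signals near background, with Hoxb4 at least 11.6-fold lower. Collagen chains were lower for 22 of 27 and none was 2-fold higher.

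Families of the epithelium split by member. Keratin 20 (Krt20), a filament of differentiated gut cells, had a signal of 1.75 on the o-organoid and 7.90 on the intestine array, 7.16 on the crypt and 2.08 on the y-organoid array, whereas Krt7 and Krt23 were 5.15-fold higher and 4.45-fold higher. Among claudins, which seal or open the space between cells, the pore-forming Cldn2 was 6.21-fold higher. Among aquaporins, Aqp4 was 7.62-fold higher and Aqp3 and Aqp8 6.24-fold lower and 26.9-fold lower. Aqp12, a water channel of pancreatic acinar cells, was at least 318-fold lower. Kinesins were higher for 15 of 37, among them the mitotic motors Kif11, Kif15 and Kif23 (4.88-fold higher, 5.74-fold higher and 5.31-fold higher), and Kif12 was 14.1-fold higher. The tubulin Tubb2b was 10.8-fold higher and Tubb6 63.5-fold lower. Of the 4 metallothioneins 2 were at least 2-fold higher, Mt4 and Mt2. Mt2 was 3.24-fold higher and stood at 4.43 on the crypt array. Mt1 and Mt3 lay within 2-fold at 0.02 and -0.07, but the other probe of Mt1 gave 3.30, so its value is uncertain. Cytosolic ribosomal protein genes lay within 2-fold for 78 of 80 and NADH dehydrogenase subunits for 36 of 37. Their medians of 0.47 and -0.41 became 1.34 and 0.45 on the deposited scale, so the direction of the latter flipped there.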
